A study of Mus musculus with 4 samples.

Results

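The genes described here belong to the endoplasmic reticulum (ER) stress response, to the chaperones of that compartment and to the response to amino acid shortage. They were taken from a list of 43 genes, and 42 had a probe set that the platform annotation gives to a single gene, out of 8251 genes named on the array in this way. Sdf2l1 had none. The 42 genes were read by 58 probe sets among the 12422 that are not controls, and the probe set brightest on average stands for its gene unless another is named. By role they comprise 13 ER chaperones and folding enzymes, 7 regulators of the stress response, 10 genes of amino acid synthesis, one-carbon metabolism and transport, and 12 aminoacyl-tRNA synthetases.

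The study asked which genes lie downstream of menin, the product of Men1, a nuclear scaffold protein that binds histone methyltransferases. All 4 arrays held total RNA of cultured embryonic fibroblasts with a Men1 knockout on a mixed FVB and 129Sv background. The cells of 2 arrays had been complemented with Men1 and those of 2 arrays with vector, and each group has an array numbered 1 and an array numbered 2. How Men1 was delivered, whether the cells were a clone and whether arrays with the same number shared a culture or a day are not given in the sources used here.

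ER chaperones bind proteins as they enter the secretory pathway, and their genes are induced when unfolded proteins accumulate, through the transcription factors ATF6 and XBP1. A second branch starts from kinases such as PERK, which senses ER stress, and GCN2, which senses uncharged tRNA. These kinases phosphorylate the initiation factor eIF2, which favours translation of ATF4, and ATF4 in turn induces genes for amino acid synthesis and transport, tRNA synthetases, and the regulators Ddit3 and Trib3. Fibroblasts secrete much collagen and so load this folding machinery even without added stress.

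Some of these genes also share short promoter sequences. Promoter windows of 250 bases before and 50 bases after the annotated start were found in RefSeq (GRCm38.p6) for 36 of the 43 genes. The ER stress element, in which CCAAT and CCACG are separated by 9 bases, was searched on both strands. It occurred in 6 of 12 ER chaperones with a window and in 0 of the 24 other members with one, against 0.137% of all genes. The windows of Hspa5, Hsp90b1 and Pdia6 are shown as examples of this element, which is in capitals, with 20 bases on either side.

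Hspa5, chr2:34772005-34772063, plus strand: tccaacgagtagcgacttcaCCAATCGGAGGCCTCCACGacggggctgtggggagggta
Hsp90b1, chr10:86705618-86705676, minus strand: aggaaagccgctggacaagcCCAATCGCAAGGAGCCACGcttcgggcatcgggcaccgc
Hsp90b1, chr10:86705513-86705571, minus strand: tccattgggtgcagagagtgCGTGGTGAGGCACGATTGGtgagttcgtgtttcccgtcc
Pdia6, chr12:17266471-17266529, plus strand: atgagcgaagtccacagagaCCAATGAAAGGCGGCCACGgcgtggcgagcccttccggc

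The core of the C/EBP-ATF response element, TTGCATCA on either strand, marks sites bound by ATF4 with a C/EBP partner. It occurred in 4 of 9 tRNA synthetases with a window (Aars, Iars, Tars and Yars), in Slc7a11 among 9 amino acid genes and in Herpud1 among the chaperones, against 1.03% of all genes. The wider form TGATGNAAT, which overlaps this core where its N is C, was found in Aars, Iars and Gars and in 1.08% of all genes. None of the 6 stress regulators with a window held either form, and TGACGTGG, the UPR element, was found in no member and in 0.714% of all genes. The windows of the 4 synthetases that hold the core are shown with it in capitals. A match is a description of these letters and not a binding site.

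Aars, chr8:111033710-111033757, plus strand: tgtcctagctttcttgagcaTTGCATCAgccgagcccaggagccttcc
Iars, chr13:49682117-49682164, plus strand: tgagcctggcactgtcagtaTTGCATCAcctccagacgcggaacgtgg
Tars, chr15:11399646-11399693, minus strand: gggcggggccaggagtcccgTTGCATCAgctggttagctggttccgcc
Yars, chr4:129189886-129189933, plus strand: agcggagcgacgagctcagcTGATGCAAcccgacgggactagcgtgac

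Signals are given on the linear scale of the deposited table, and differences as log2(signal + 16), Men1-complemented minus vector, with the standard error (SE) of the limma fit. Adding 16 makes differences of dim probe sets smaller than their fold. Bulk signal cannot separate a different number of cells from a different amount of RNA per cell, and the whole-array scaling hides any change in total RNA. For Men1 itself the only probe set gave 18.8 and 22.5 after complementation, against 18.1 and 29.5 with vector (log2 difference -0.11, SE 0.22), and whether it covers the deleted or the introduced sequence is not known here. A signal is called at control level where neither array of a group exceeded the highest of 19 bacterial and yeast control probe sets, which was 25.9 and 27.4 on the Men1 arrays and 15.9 and 20 with vector. By this mark the Men1 probe set was at control level after complementation and above it with vector, so its signals do not show the complementation. Of 12 fibroblast markers 11 exceeded control level in at least 1 group, with Col1a1 between 6057 and 7619 on the 4 arrays, and only Thy1 did not. Some of the 11 were dim, such as Vim (24.2 to 37.5), Col3a1 (24.5 to 101.3) and Dcn (18.5 to 139.3), and Lum was at control level with Men1. Of markers of other cell types, 3 of 6 epithelial, 3 of 5 endothelial and 3 of 6 leukocyte genes were at control level in both groups, Epcam, Cdh5 and Ptprc among them. Others gave signal, such as Cdh1 in epithelium (93.7 to 165.2) and Csf1r in macrophages (48.4 to 71.3). Signals with Men1 lay above those with vector, without overlap, for Krt19 (106.7 and 146.5 against 93.6 and 67.2), Pecam1 (41 and 49.5 against 23 and 37.9) and Cd74 (64 and 70.5 against 54 and 51.7). They lay below, without overlap, for Kdr (20 and 20.6 against 22.7 and 24), at control level with Men1. Of the fibroblast markers, Twist1 was higher and S100a4 lower without overlap. In these lists 1 of 6 epithelial, 2 of 5 endothelial and 3 of 6 leukocyte genes were higher with Men1, and the others lower. The muscle factor Myod1 read 78.9 to 109.8, with groups that overlap, and Myog, or myogenin, read 23.7 and 28.1 against 68.1 and 53.3 (log2 difference -0.87, SE 0.20, limma adjusted p of 1). The summed signal of 4 skeletal muscle markers was 171.5 and 155.7 with Men1 against 204.6 and 227.6, whereas the sums of the fibroblast, epithelial, endothelial, leukocyte and neural lists overlapped between the groups. The part of these markers in the results below was not tested.

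Across the whole table no probe set passed the limma threshold of an adjusted p under 0.05 (0 of 12422, 0%), so no member did either, and the adjusted p of every member was 1. At an unadjusted p under 0.05 there was 1 member of 42, Calr, where 1.68% of all genes met this mark. The count was 2 without vector array 1 (Calr and Wars), where 8.3% of all probe sets met the mark, and 0 without any other array. Of the 42 members 30 were higher and 12 lower with Men1, with a median log2 difference of 0.07, beside a median of -0.01 over all genes, of which 47% were higher. The groups did not overlap in 9 members that were higher with Men1 and in 2 that were lower, that is 21.4% and 4.76% of members, beside 10.1% and 12% of all genes. These counts include members at control level in both groups. Of the 39 others 28 were higher and 11 lower, and the groups did not overlap in 8 that were higher (20.5%) and in 1 that was lower (2.56%). Members had brighter probe sets than most genes, with a median signal of 398 against 84. Among the 36 members with a mean signal of at least 50 these shares were 19.4% and 2.78%. They were 10.7% and 11.8% of the 4972 genes that met the same minimum. Brightness was not matched, as the median signal was 467 for these members and 191 for those genes.

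The differences were small beside their intervals. Log2 differences of the 39 members above control level in at least 1 group ran from -0.21 to 0.44. The 95% interval stayed within 1 log2 unit of 0 for 36 of them, the exceptions being Wars, Mthfd2 and Shmt2. It did so for 6589 of all 8251 genes and for 4219 of the 4972 with a mean signal of at least 50. For 30 of the 42 members the mean difference between the arrays of a group was larger than the difference between the groups. The same was true of 6393 of all 8251 genes and of 3849 of the 4972 brighter genes, so it is no trait of the members.

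**Figure D1:**
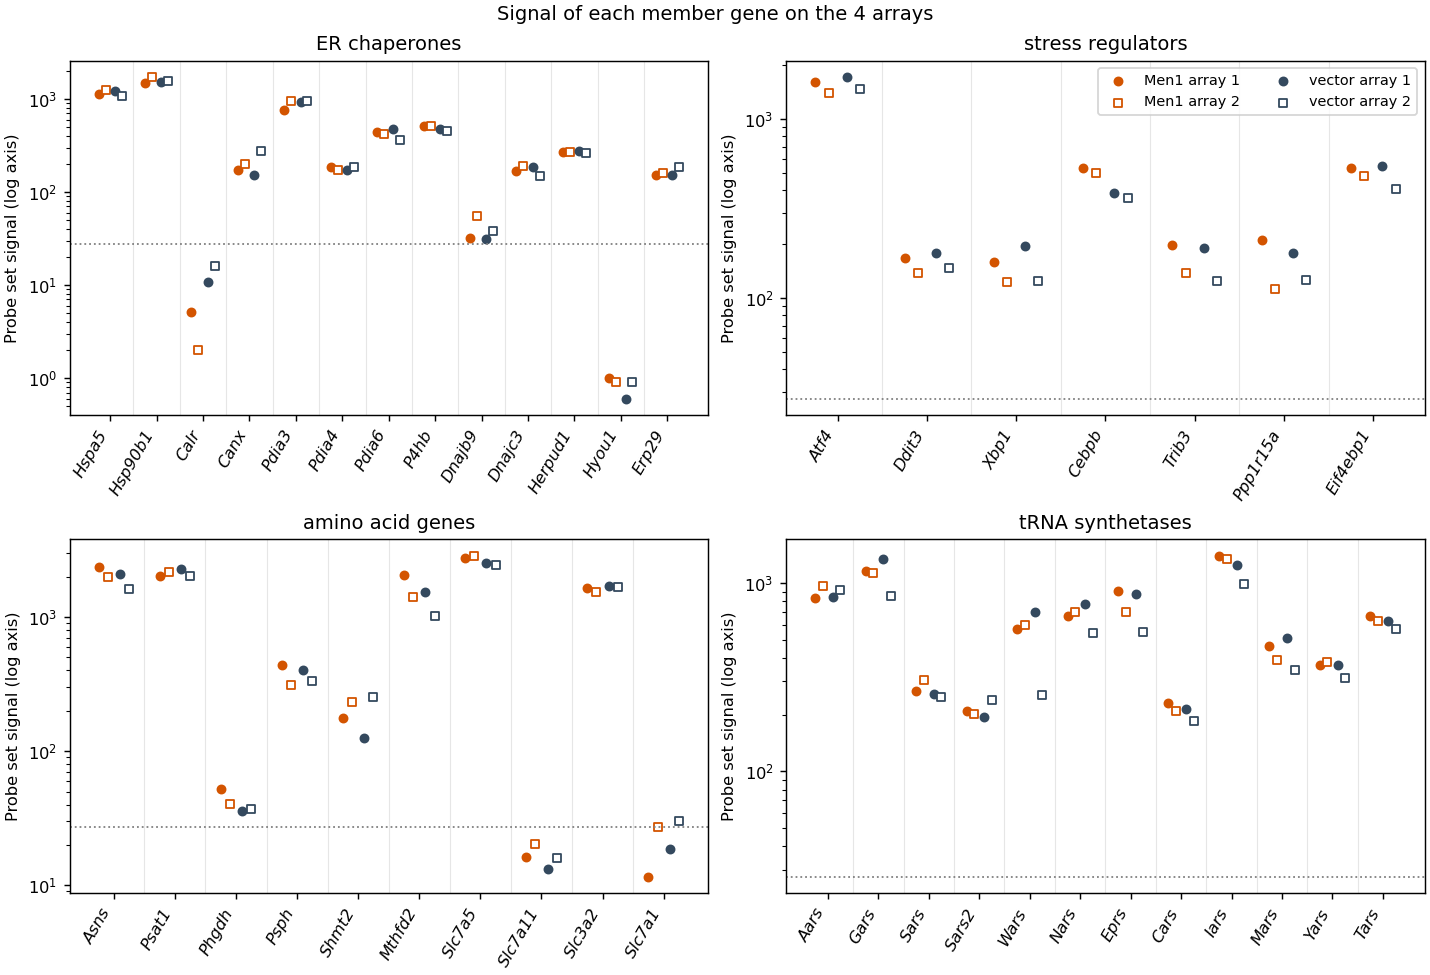
Signal of each of the 42 genes on the 4 arrays, in 4 panels by role, on a log axis. Orange marks are Men1-complemented and dark marks vector, filled circles are arrays numbered 1 and open squares arrays numbered 2, and the dotted line is the highest control signal, 27.4. In the stress regulators each filled circle lies above the open square of its group.

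Among the ER chaperones, Hspa5, the ER member of the Hsp70 family (BiP) that holds the stress sensors inactive, read 1122 and 1232 on the Men1 arrays and 1205 and 1087 with vector. The groups overlap, and the log2 difference was 0.04 (SE 0.18) with a 95% interval from -0.43 to 0.5. Hsp90b1, the ER member of the Hsp90 family, read 1468 and 1711 on the Men1 arrays and 1522 and 1562 with vector. Both vector signals lay between the Men1 signals, and the difference was again 0.04 (SE 0.18).

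P4hb, protein disulfide isomerase and a subunit of the enzyme that hydroxylates proline in collagen, read 517.2 and 513.7 on the Men1 arrays and 480.1 and 448.9 with vector. Both Men1 arrays were above both vector arrays, by 0.15 (SE 0.17) on the log2 scale, but a dimmer P4hb probe set (24.1 and 30.1 against 16.9 and 40.1) overlapped. Dnajb9, a cochaperone of Hspa5 induced by XBP1, read 31.7 and 55.4 on the Men1 arrays and 31.4 and 37.7 with vector, and its groups overlap. The difference of its brighter probe set was 0.21 (SE 0.26) and that of its other probe set 0.04 (SE 0.23).

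Calr, the lectin chaperone calreticulin, read 5.2 and 2 on the Men1 arrays and 10.8 and 15.9 with vector. All 4 signals were at control level, so this probe set measured no difference, although the fit gave -0.58 (SE 0.20, unadjusted p = 0.0351). Hyou1, another ER chaperone of the Hsp70 family, was also at control level throughout, with signals of 0.6 to 1. Canx, the membrane-bound relative of Calr, differed by -0.13 (SE 0.32), with a wide gap between vector signals of 151.4 and 278.4. A dimmer Canx probe set read 61.5 and 73.1 on the Men1 arrays and 80.3 and 84.7 with vector, which do not overlap, a difference of -0.24 (SE 0.18).

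The other disulfide isomerases gave -0.16 (SE 0.20) for Pdia3, 0.01 (SE 0.17) for Pdia4 and 0.05 (SE 0.21) for Pdia6. A dimmer Pdia6 probe set read 99.2 and 118.4 on the Men1 arrays and 98.4 and 78.8 with vector, without overlap (0.26, SE 0.20). Its remaining probe set overlapped (0.22, SE 0.27). Of the remaining chaperone genes, Dnajc3, which inhibits PERK, differed by 0.11 (SE 0.20), and Herpud1, a component of ER-associated degradation, by -0.02 (SE 0.17). A dim Dnajc3 probe set read 24.3 and 43.8 on the Men1 arrays and 19 and 23.7 with vector, without overlap (0.40, SE 0.25). Its other probe sets overlapped, at -0.04 (SE 0.17) and, at control level, -0.09 (SE 0.22). Erp29, an ER protein with a thioredoxin fold, differed by -0.11 (SE 0.19) in its brighter probe set. A dim Erp29 probe set read 31.9 and 46.6 on the Men1 arrays and 8.9 and 12.9 with vector. It was at control level with vector. Set against the highest controls of the vector arrays, it was at least 1.62-fold higher with Men1, with a limma adjusted p of 1. The highest controls of the Men1 arrays were 25.9 and 27.4, so this fold is uncertain. The brighter probe set overlapped and had the opposite sign. Of the 13 chaperone genes 8 were higher and 5 lower, Hyou1 and Calr at control level included, with a median of 0.02 (-0.03 without Men1 array 2). The 6 whose promoter window holds an ER stress element were Calr, Canx, Dnajc3, Hsp90b1, Hspa5 and Pdia6, and apart from Calr, at control level, they ran from -0.13 to 0.11.

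In the regulators of the stress response the arrays numbered 1 read above those numbered 2 in both groups, and the groups overlapped for all but Cebpb. Atf4, the transcription factor of the amino acid response, read 1601 and 1386 on the Men1 arrays and 1709 and 1477 with vector. The array numbered 1 was the higher of each group, and the groups overlap, with a log2 difference of -0.09 (SE 0.19). Ddit3, or CHOP, a factor tied to cell death under prolonged ER stress, showed the same order at 168.4 and 137.7 on the Men1 arrays and 179 and 146.8 with vector (-0.08, SE 0.21). Xbp1, the factor whose mRNA is spliced by IRE1, read 158.6 and 123.7 on the Men1 arrays and 194.9 and 124.6 with vector (-0.14, SE 0.27). Signal of Xbp1 is given for the gene as a whole, and splicing was not measured.

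Trib3, a pseudokinase induced by ATF4 and CHOP, had a wider gap within each group than between the group means. It read 197.9 and 138.5 on the Men1 arrays and 189.7 and 124.7 with vector, a difference of 0.10 (SE 0.29) between groups. Between the arrays numbered 1 and 2, Trib3 differed by 0.47 with Men1 and by 0.55 with vector. Ppp1r15a (GADD34), which directs the phosphatase that restores eIF2, gave 0.03 (SE 0.34) between groups and 0.81 and 0.44 between the arrays of each. Eif4ebp1, an inhibitor of cap-dependent translation, gave 0.10 (SE 0.22) between groups.

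Cebpb, a partner of ATF4 at C/EBP-ATF elements, stood apart among the regulators. It read 529.9 and 496.4 on the Men1 arrays and 384.4 and 362.9 with vector, so both Men1 arrays were above both vector arrays by more than the gap within either group. Its log2 difference of 0.44 (SE 0.17) had a 95% interval from -0.01 to 0.89. It did not pass (adjusted p = 1, unadjusted p = 0.0519). It was 0.40 to 0.49 when single arrays were left out, and its unadjusted p was 0.0097 with a pseudocount of 64 and 0.148 with a pseudocount of 1.

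In all 7 regulators the array numbered 1 was above the array numbered 2 in both groups, an order that 21.8% of all genes and 27.1% of genes with a mean signal of at least 50 showed. It held for 3 of 13 chaperones, 4 of 10 amino acid genes and 6 of 12 tRNA synthetases. The median gap of the regulators was 0.26 with Men1 and 0.40 with vector, beside a median log2 difference of 0.03 between the groups. That median was -0.19 without Men1 array 1 and without vector array 2, 0.17 without Men1 array 2 and 0.26 without vector array 1. The summed signal of 4 neural markers, most of it from Nes and Tubb3, had the same order by number (3203 and 2726 with Men1, 3421 and 2210 in the vector group). A dimmer Tubb3 probe set had the reverse order (40.6 and 76.5 with Men1, 56 and 127.7 with vector). Gfap was also reversed in the vector group (46.6 and 74.4), and Map2 was at control level. The order of the regulators was noticed in the values, and neither it nor the part of these markers in it was tested.

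**Figure D2:**
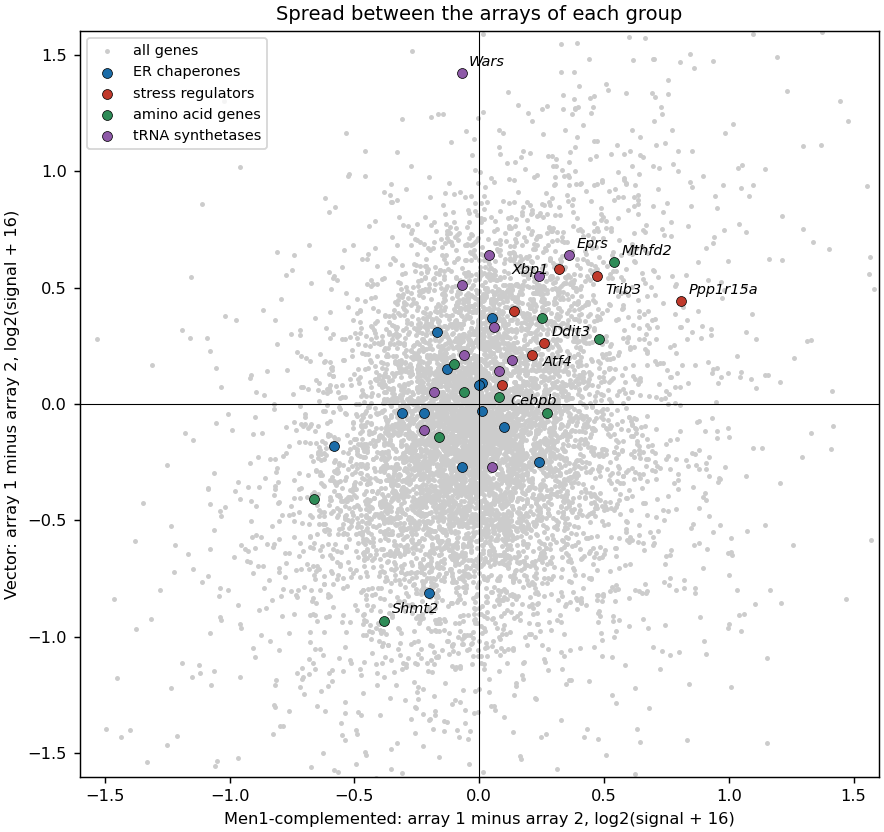
Difference between the array numbered 1 and the array numbered 2 within the Men1-complemented group (horizontal axis) and within the vector group (vertical axis), in log2(signal + 16). Grey points are all 8251 genes, of which 92 lie outside the axes, and coloured points are the 42 genes by role. All 7 stress regulators lie in the upper right quadrant, and Wars lies high on the vector axis only.

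Genes of amino acid supply had mostly positive differences, with 7 of 10 higher, Slc7a11 among them at control level, and a median of 0.16 (0.09 to 0.12 without each array in turn). Asns, asparagine synthetase and a classical ATF4 target, read 2376 and 1998 on the Men1 arrays and 2099 and 1617 with vector. Its groups overlap, with a difference of 0.24 (SE 0.22), and the array numbered 1 was again the higher of each group. The difference was 0.05 without vector array 2, 0.12 without Men1 array 1, 0.36 without Men1 array 2 and 0.43 without vector array 1. A dimmer Asns probe set differed by 0.06 (SE 0.28). Mthfd2, the mitochondrial one-carbon enzyme, read 2045 and 1402 on the Men1 arrays and 1549 and 1011 with vector. Its difference was 0.43 (SE 0.31), and 0.13 without vector array 2, 0.16 without Men1 array 1, 0.70 without Men1 array 2 and 0.74 without vector array 1. Its arrays differed by 0.54 and 0.61 within the groups, and its second probe set gave only control-level signals.

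Serine is made from a glycolytic intermediate by Phgdh, Psat1 and Psph in turn. Phgdh read 52.1 and 40.3 on the Men1 arrays and 35.6 and 36.9 with vector, which do not overlap, a difference of 0.25 (SE 0.19) at a low signal. Psat1 differed by -0.04 (SE 0.18) and Psph by 0.01 (SE 0.24), where the groups overlap. Shmt2, which makes glycine from serine in mitochondria, gave 0.17 (SE 0.36), with signals of 175.6 and 233.4 against 124.7 and 252.3.

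Among the transporters, Slc7a5 and Slc3a2 encode the light and the heavy chain of a carrier for large neutral amino acids. Slc7a5 read 2755 and 2871 on the Men1 arrays and 2532 and 2439 with vector, and Slc3a2 read 1643 and 1549 on the Men1 arrays and 1705 and 1674 with vector. Neither pair of groups overlaps, but the signs are opposite, at 0.18 (SE 0.17) and -0.08 (SE 0.17). Slc7a11, the cystine carrier that also pairs with Slc3a2, stayed at control level on all 4 arrays (16.3 and 20.2 against 13.2 and 16.1). Slc7a1, a carrier of cationic amino acids, was at control level with Men1 only, and its groups overlap (11.5 and 27.4 against 18.7 and 30).

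Of the 12 tRNA synthetases, which charge tRNAs with their amino acids, 11 were higher with Men1 and 1 lower, with a median of 0.12. The median was 0.27 without vector array 1 and 0.03 without vector array 2. Vector array 2 was the lowest of the 4 for Gars, Wars, Nars, Eprs, Cars, Iars, Mars, Yars, Tars and Sars. It was the highest for Sars2, the mitochondrial enzyme for serine. How many of all genes share this order was not counted. The median deviation from a gene's mean on vector array 2 was -0.23 for the synthetases and 0.06 for all genes. On Men1 arrays 1 and 2, 10 and 11 of 12 were higher than on vector array 2, but only 7 and 6 were higher than on vector array 1. Iars, the isoleucine enzyme, read 1399 and 1338 on the Men1 arrays and 1244 and 985.6 with vector. Its groups do not overlap, and the difference was 0.30 (SE 0.20), with 0.14 without vector array 2 and 0.47 without vector array 1. Sars, the cytosolic serine enzyme, read 266.1 and 304.1 on the Men1 arrays and 257.9 and 248.6 with vector, again with no overlap, by 0.16 (SE 0.18).

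Wars, the tryptophan enzyme, shows how 1 array can set a value. It read 570.6 and 598.4 on the Men1 arrays and 705.7 and 253.7 with vector, a difference of 0.44 (SE 0.49). Its difference was 1.15 without vector array 1 and -0.27 without vector array 2. The other Wars probe sets differed by 0.24 (SE 0.22) and 0.07 (SE 0.33).

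The groups also did not overlap for Yars (0.14, SE 0.18) and Tars (0.11, SE 0.18), so this held for 4 of 12 synthetases (33.3%), all higher with Men1. Of all genes 10.1%, and of those with a mean signal of at least 50 10.7%, were higher in this way. Among 10 further genes of cytosolic synthetases and their scaffold, described below, 0 were higher in this way and 1 was lower. A dimmer Yars probe set overlapped (0.04, SE 0.25), at 54.8 and 59.6 with Men1 against 42.6 and 71. Its highest signal was on vector array 2. Aars, the alanine enzyme, read 829.5 and 969.1 on the Men1 arrays and 847.5 and 917.9 with vector. Its vector signals lay between the Men1 signals (0.02, SE 0.19).

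The remaining cytosolic synthetases differed by 0.20 (SE 0.29) for Eprs, which joins the glutamate and proline enzymes, 0.12 (SE 0.18) for Cars, 0.09 (SE 0.27) for Gars, 0.09 (SE 0.23) for Nars and 0.02 (SE 0.25) for Mars. Sars2 differed by -0.07 (SE 0.19) in its brightest probe set. A dim Sars2 probe set was at control level with vector (26.2 and 34.5 with Men1 against 9.6 and 7, limma adjusted p of 1). Set against the highest controls of the vector arrays, it was at least 1.36-fold higher with Men1. The Men1 signals were themselves close to the highest controls of their arrays (25.9 and 27.4), so this fold is uncertain. The remaining probe set overlapped. Over all roles, 4 of the 11 genes with several probe sets had at least 1 of opposite sign to the brightest, namely Dnajc3 (in 2 probe sets), Erp29, Mthfd2 and Sars2.

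**Figure D3:**
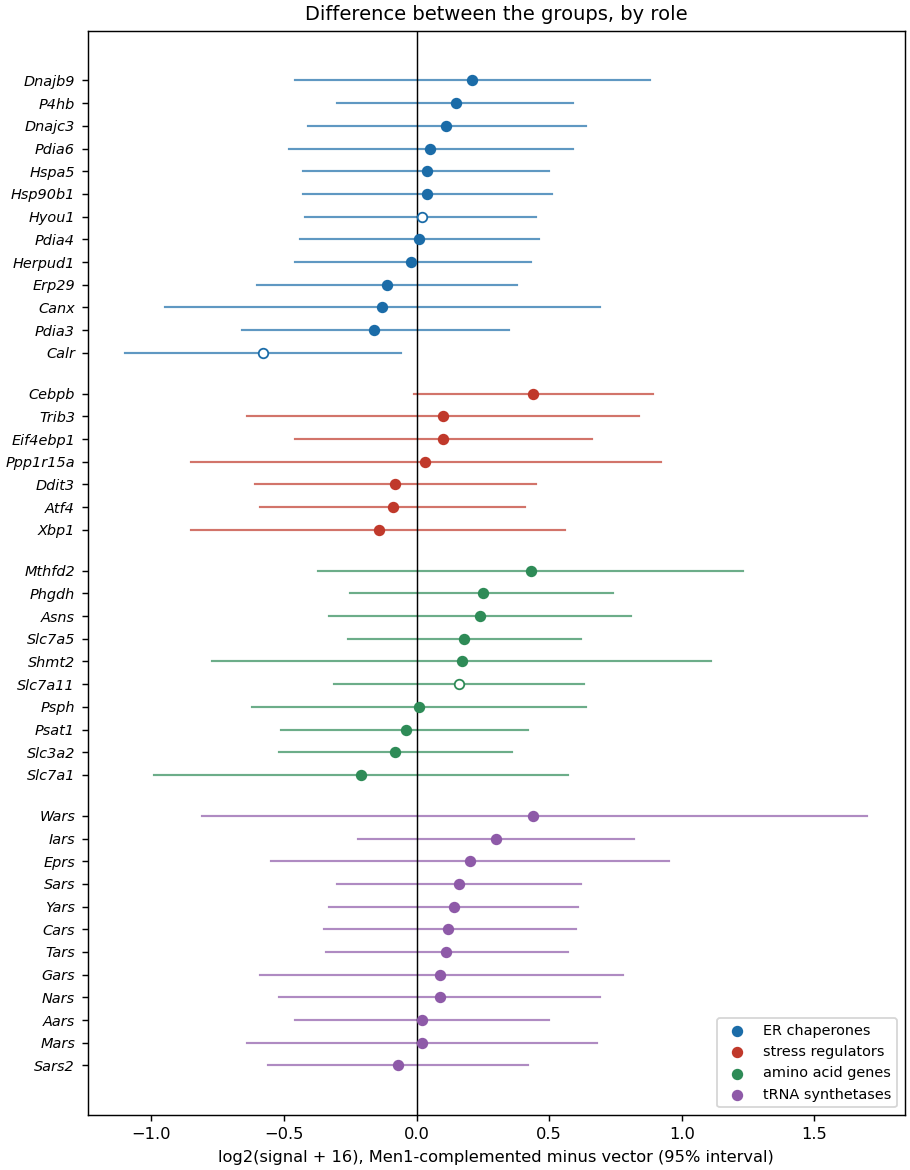
Log2 difference of each of the 42 genes, Men1-complemented minus vector, on the log2(signal + 16) scale, with its 95% interval from the limma fit and ordered within each role. Open points are the 3 genes at control level in both groups. All intervals except that of Calr, at control level, include 0, and 11 of 12 tRNA synthetases lie above 0.

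Other genes of these pathways gave small differences too, and none passed at an adjusted p under 0.05 or at an unadjusted p under 0.05. Of 31 further genes of ER folding and quality control 12 were higher and 19 lower (median -0.05). Sel1l, a scaffold of ER-associated degradation, differed by 0.38 (SE 0.19), and Sec23b, a coat protein of vesicles that leave the ER, by -0.31 (SE 0.20). A dimmer Sel1l probe set differed by -0.01 (SE 0.25), with groups that overlap. Of 27 further genes of the amino acid response 12 were higher and 15 lower (median -0.03). Among them Aldh18a1, which makes the proline precursor, differed by 0.31 (SE 0.19), and the arginine carrier Slc7a3 gave 5.8 and 12.2 on the Men1 arrays, at control level, against 16.6 and 38.6.

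Of 10 further genes of cytosolic synthetases and their scaffold 7 were higher and 3 lower (median 0.06). Farsb, a subunit of the phenylalanine enzyme, differed by 0.44 (SE 0.34), again with the lowest signal on vector array 2 (182.9), and the scaffold protein Aimp2 by -0.25 (SE 0.19). Of 4 mitochondrial synthetases 1 was higher, Tars2 (0.17, SE 0.18), and 3 were lower, including Fars2 (-0.10, SE 0.19). Heat shock proteins outside the ER were 11 higher and 10 lower (median 0.0017), and of the 21 the groups did not overlap in 6 that were higher (28.6%, Hsf2 among them at control level) and in 2 that were lower (9.52%), beside 10.1% and 12% of all genes. Hsph1, a partner of Hsp70 in the cytosol, read 895.2 and 1216 on the Men1 arrays and 661.7 and 744.9 with vector (0.56, SE 0.22), without overlap. Bag3, a cochaperone induced by heat shock, differed by 0.39 (SE 0.19), also without overlap. The other Bag3 probe set differed by 0.38 (SE 0.26), with groups that overlap.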

How the data were processed

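Each of the 4 samples was hybridised to 1 Affymetrix array. The deposited table holds probe set intensity on a linear scale. For these values the authors used MAS5 in Affymetrix Expression Console, per the submitters' processing notes, whose versions and scaling target are not given in the sources used here. On each array the mean after trimming 2% at each end was 150.1, so arrays had been scaled as a whole, and no further normalization was applied. The 66 control probe sets were left out. Genes were named through the platform annotation only from probe sets with 1 symbol (396 had several and 1193 none).

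Signals were tested as log2(signal + 16) by limma 3.58.1 (lmFit, eBayes; R 4.3.3) in 1 two-sided fit over 12422 probe sets, called at a Benjamini-Hochberg adjusted p under 0.05. Residual degrees of freedom were 2 and prior degrees of freedom 2.87, and the number of arrays limits the precision. The labels name no separate cultures within a group, so p-values reflect only the spread between these arrays, and that spread may be technical. The fit was tested on simulated data.

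Members, lists and roles were chosen with earlier results of these data known. By rule, every member could be named, array values were given for 9 defining genes and the 3 members of each role with the smallest p, and further pathway lists gave up to 2 genes each by smallest p. Array values of other members, and of control genes and markers, were added after their values were seen. Alternatives were pseudocounts of 1 and 64, quantile normalization, a minimum mean signal of 50, a replicate block, a trended prior variance, the mean of a gene's probe sets, and each array left out.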

Additional observations from a re-analysis of the deposited data

How the results depend on the processing

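The number of probe sets called by limma was 0 in every setting run, while the number at an unadjusted p under 0.05 ran from 67 with a minimum mean signal of 50, which tests fewer probe sets, to 1031 without vector array 1 (233 as reported). Members at an unadjusted p under 0.05 were 1 in the reported fit, 2 with quantile normalization, 2 with a trended prior variance, 0 with a minimum mean signal of 50, which leaves out Calr, and 0 to 2 without single arrays. The median log2 difference of the amino acid genes was 0.16, and became 0.10 when 64 was the pseudocount and 0.09 to 0.12 without single arrays. Without single arrays the median of the chaperones was -0.03 to 0.03, that of the stress regulators -0.19 to 0.26 and that of the synthetases 0.03 to 0.27. Signs that turned did so without single arrays: ranges were -0.18 to 0.37 for Trib3, -0.09 to 0.13 for Aars, -0.20 to 0.01 for Atf4, -0.21 to 0.05 for Ddit3, -0.08 to 0.50 for Dnajb9, -0.07 to 0.15 for Hsp90b1, -0.04 to 0.11 for Hspa5, -0.43 to 0.15 for Xbp1 and -0.27 to 1.15 for Wars. Without changing sign, single arrays moved values to 0.05 to 0.43 for Asns, 0.13 to 0.74 for Mthfd2, 0.14 to 0.47 for Iars, 0.11 to 0.38 for Phgdh, 0.07 to 0.25 for Sars, 0.08 to 0.24 for Slc7a11 and 0.10 to 0.19 for P4hb. The minimum mean signal gave no value for Calr, Dnajb9, Phgdh and Slc7a11, which it leaves out. Other settings kept the sign of every gene given with array values by the naming rule.

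Deviations of arrays with the same number from their group means correlated with r = 0.26 over all probe sets and 0.51 over the 42 members, which is across genes, and genes are not independent replicates. The labels do not say that the number marks a shared culture or day. With the replicate block 1 member, Calr, had an unadjusted p under 0.05, and 0 probe sets were called. The 4 arrays limit what can be seen, with a median SE of 0.20 among members. Probe sets at control level carry no order.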
